A study of Oryza sativa with 8 samples.

Results

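This report concerns 48 rice loci that were silent in the leaves of wild-type plants and on in those of mEmBP-OE-4, a transgenic line in which mEmBP-1a, a maize transcription factor of the basic leucine zipper (bZIP) class, is overexpressed. A locus was taken when its level was 0.5 CPM (the count divided by the library's total count and multiplied by 1000000) or more in each mEmBP-OE-4 library and under 0.1 CPM in each WT library. Loci in 5 segments of the locus order on chromosomes 4, 7, 11 and 12, where large changes are crowded, were left out. The rule found 48 of the 35343 Os loci outside these segments, or 0.136%, in a table of 36850 rows. Because both groups' values chose the loci, their difference between the groups is described here and not tested.

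Leaf RNA was sequenced from field-grown rice (Oryza sativa) at the early heading stage, from the second leaf counted from the top, harvested in the morning. The groups were mEmBP-OE-4, which is a single transgenic line, and WT, with 4 libraries each. The labels give neither the promoter that drives the transgene nor the cultivar, and do not say whether a library is 1 plant or a pool. Totals ranged from 38308580 to 50800180 counts in mEmBP-OE-4 and from 35627524 to 47643781 counts in WT. Expression of the maize transgene itself was not analysed here. The tissue could not be checked against marker genes, because the table gives locus IDs without gene names and none of the 48 IDs was found in the gene table used here.

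Factors of the bZIP class bind DNA as dimers and recognise elements built around an ACGT core, and EmBP-1 was first described as a factor that binds such an element, the G-box class, in a promoter of the Em gene of wheat, which responds to abscisic acid. Many plant genes are transcribed in some organs or conditions only, so a leaf library holds few or no reads of a large part of the annotated loci. In bulk leaf RNA, a transcript found in more cells and a transcript made in larger amounts per cell cannot be told apart. The rice ID names the chromosome in the digits after Os, and its last digits number the loci along it. No function is given to any locus here.

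The 48 loci were low transcripts in mEmBP-OE-4 and close to the limit of counting in WT. Their mean level over the 4 mEmBP-OE-4 libraries ran from 0.675 to 15.01 CPM with a median of 1.70 CPM, and 37 loci had 1 CPM or more, 22 had 2 CPM or more and 5 had 5 CPM or more. Among the 16795 Os loci with at least 0.5 CPM in every mEmBP-OE-4 library the median was 9.24 CPM, and 2 of the 48 lay above it. Summed over the 48 loci, the level was 151.8, 87.7, 122.1 and 121.6 CPM in mEmBP-OE-4 replicates 1 to 4, against 0.861, 1.19, 1.04 and 0.890 CPM in WT replicates 1 to 4. The mean was 120.8 ± 26.2 CPM in mEmBP-OE-4, which is 0.0121% of the counts, and 0.995 ± 0.152 CPM in WT (SD, n = 4 each). The 5 most abundant loci held 35.5% of the sum in mEmBP-OE-4.

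**Figure D1:**
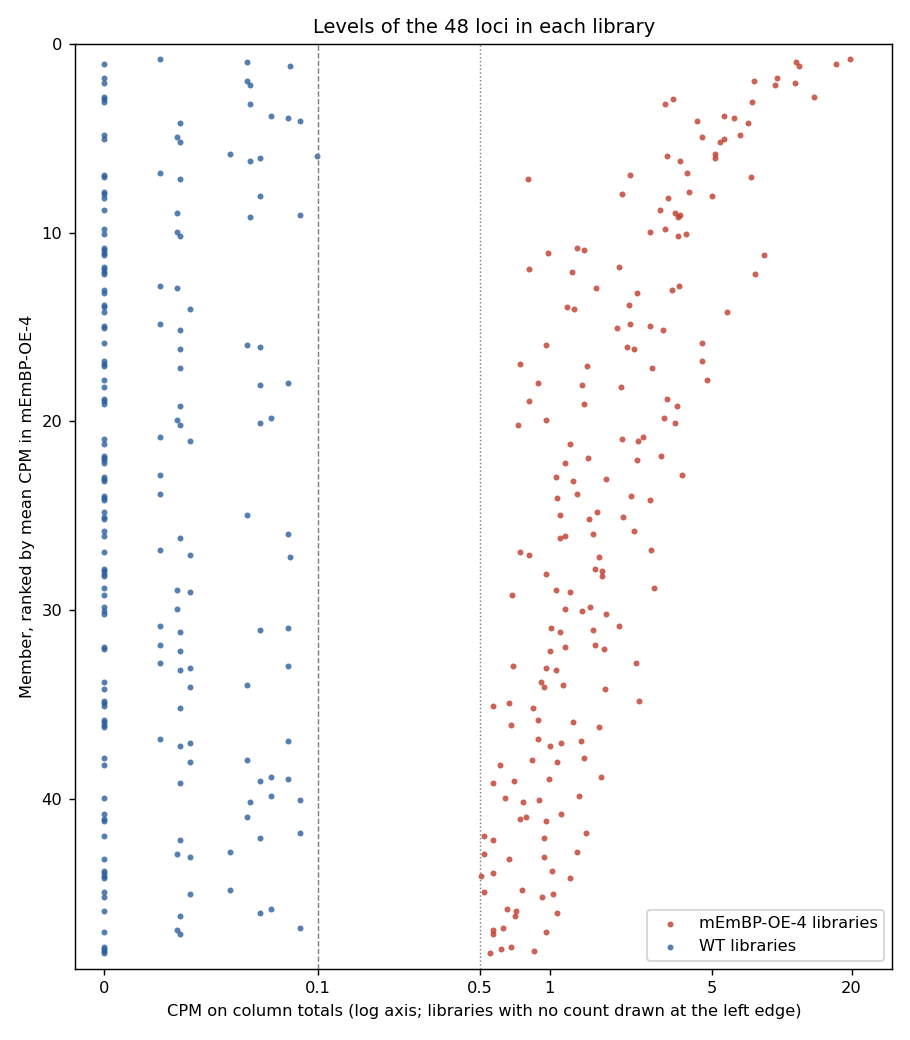
Level of each of the 48 loci in each library, in CPM on a log axis, with loci ranked down the page by their mean in mEmBP-OE-4 (red points, 4 libraries) and WT libraries in blue. The dashed line is the WT ceiling of 0.1 CPM and the dotted line the mEmBP-OE-4 floor of 0.5 CPM. The empty band between the lines is set by the rule, and the red points run from 0.504 to 19.6 CPM.

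The most abundant locus was Os03g0299700 on chromosome 3. It had 751, 467, 780 and 600 counts in mEmBP-OE-4 replicates 1 to 4, against 1, 2, 0 and 3 counts in WT replicates 1 to 4. These are 19.6, 11.5, 17.1 and 11.8 CPM in mEmBP-OE-4, with a mean of 15.01 ± 3.99 CPM, and 0.0367 ± 0.0333 CPM in WT (SD, n = 4 each). It was the only locus of the 48 with at least 10 CPM in every mEmBP-OE-4 library. Next came Os06g0246200 on chromosome 6, with 367, 307, 522 and 476 counts in mEmBP-OE-4 replicates 1 to 4, against 0, 2, 0 and 2 counts in WT replicates 1 to 4. Its mean was 9.49 ± 1.57 CPM in mEmBP-OE-4 and 0.0251 ± 0.0290 CPM in WT (SD, n = 4 each). Between the highest and the lowest mEmBP-OE-4 library these 2 loci differed by 1.70-fold and 1.51-fold, beside a median of 2.29-fold over the 48. The 16747 other Os loci that were on in every mEmBP-OE-4 library had a median of 1.59-fold. Together the 2 loci held 20.3% of the sum of the 48.

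The WT counts behind the word silent were few. The ceiling of 0.1 CPM equals 3.56 to 4.76 counts in the WT libraries, and the floor of 0.5 CPM equals 19.2 to 25.4 counts in the mEmBP-OE-4 libraries. No locus had more than 4 counts in a WT library, while the smallest count of a locus in a mEmBP-OE-4 library was 21. Of the 192 values in WT, 98 were 0. A count of 0 allows a level of up to 0.0630 to 0.0842 CPM, or 3 counts, in a WT library. Over the 4 WT libraries together 7 loci had no count, 22 had 1 to 3 counts and 19 had more, up to 10.

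For the 7 loci with no WT count a ratio is only a lower bound. Set against 3 counts over the whole WT group, these bounds ran from 36.6-fold to 179-fold higher in mEmBP-OE-4. They take the mEmBP-OE-4 counts as exact and leave out their counting error. The lower end of the exact binomial 95% interval, which includes it, was 29.3-fold for Os07g0511100 and 145-fold for Os05g0190300. That interval has limits on both sides and so sets a stricter limit than 3 counts. The gap to the bounds is therefore not a measure of the counting error left out. The highest bound belonged to Os05g0190300, where mEmBP-OE-4 replicate 4 held most of the counts. Without that library its bound was 66.3-fold and that of Os05g0135500 72.5-fold in place of 172-fold, and the highest of the 7 was then 124-fold, for Os01g0262401. The lowest bound over all libraries belonged to Os07g0511100, which was also the least abundant of the 48, at 0.675 ± 0.130 CPM in mEmBP-OE-4 (SD, n = 4) and no count in WT. For the 19 loci with over 3 WT counts the ratio of pooled CPM ran from 17.0 to 402.6 with a median of 46.9. The lowest of these, for Os10g0135650, had a 95% interval of 8.76 to 37.9 (exact binomial, counting error only). That locus had 64, 40, 32 and 29 counts in mEmBP-OE-4 replicates 1 to 4, against 3, 3, 2 and 1 counts in WT replicates 1 to 4. Loci with 1 to 3 WT counts had ratios between 44.6 and 540.3, and the highest of them, for Os09g0538000, had an interval of 149 to 4466. The ratios of such loci are thus known only within a wide range. The rule chose the loci for low WT counts and high mEmBP-OE-4 counts. All these ratios, bounds and intervals rest on the same counts, so they may be too high and lack their stated coverage. Loci named other than the 2 most abundant were singled out after their values were seen.

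The thresholds cut through a continuous range. Just inside the floor, the lowest mEmBP-OE-4 library of a locus stood at 0.504 and 0.519 CPM, and just outside it at 0.494 and 0.460 CPM. Just inside the ceiling, the highest WT library stood at 0.0991 and 0.0842 CPM, and just outside it at 0.102 and 0.105 CPM. With a WT ceiling of 0.05 CPM 28 loci were left and with 0.2 CPM there were 81, while a mEmBP-OE-4 floor of 1 CPM left 21 and one of 0.25 CPM gave 90. Of the 11848 Os loci outside the segments that were silent in WT, 10510 were under 0.1 CPM in every mEmBP-OE-4 library too, and 1290 met neither limit in mEmBP-OE-4. The 48 loci made up 0.405% of the loci silent in WT.

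A library that took no part in the choice gives a value that the rule did not use. The rule was therefore applied to 7 libraries at a time and the remaining library was read. With a mEmBP-OE-4 library left out, 51 to 60 loci were chosen, and 80% to 94.1% of them reached 0.5 CPM in that library. Of the 16791 to 17063 Os loci outside the segments that were on in the same 3 other mEmBP-OE-4 libraries, whatever their WT level, 98.0% to 99.6% did so. With a WT library left out, 50 to 58 loci were chosen, and 82.8% to 96.0% of them were under 0.1 CPM in that library, against 95.4% to 99.0% of the 11963 to 12415 Os loci that were silent in the same 3 other WT libraries. The loci that passed in the library left out are the 48 themselves each time, and the shares say what part of such a choice held in 1 more library. The compared loci include all levels above the floor or below the ceiling and were not matched to the 48 in level. The highest level that a locus chosen in this way reached in the WT library left out was 0.273 CPM, so no such locus came up to the floor there. In the mEmBP-OE-4 library left out, 1 chosen locus was under 0.1 CPM in replicate 2, 2 were in replicate 4, and none was in replicates 1 and 3. The replicates of a group may share plants, field plots or preparation, which the labels do not give.

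**Figure D2:**
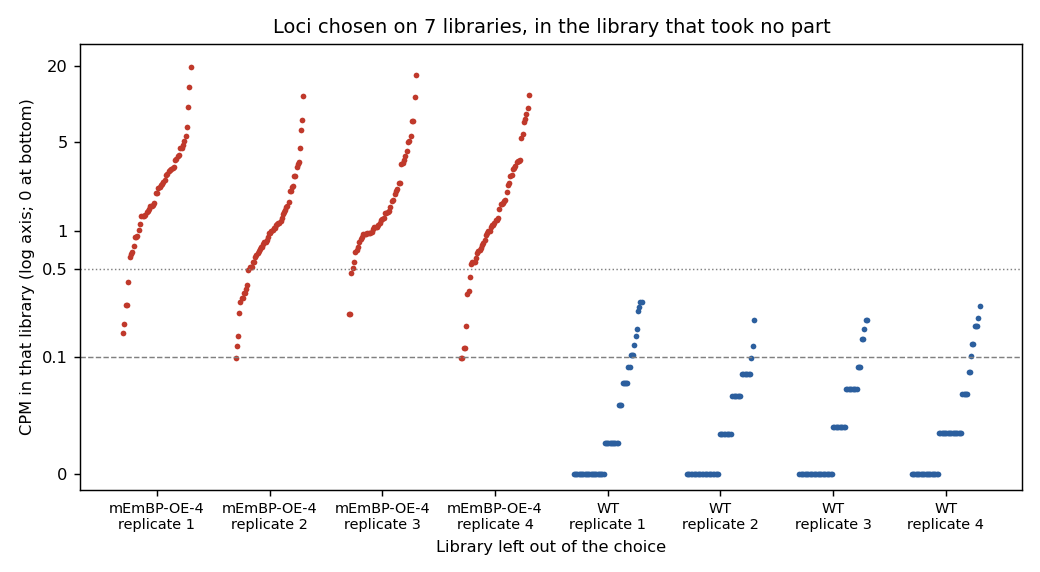
Level, in CPM on a log axis, of the loci chosen on 7 libraries, read in the library left out (mEmBP-OE-4 in red, WT in blue, 1 point per locus, sorted by level within a library). Most red points lie above the dotted line at 0.5 CPM and most blue points below the dashed line at 0.1 CPM, with the highest blue point at 0.273 CPM.

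All 48 loci passed the filter on low counts through their mEmBP-OE-4 libraries, where the rule made them high, and all 48 were called higher by the quasi-likelihood test of edgeR, adjusted after Benjamini and Hochberg. Over all 20690 tested rows 20.1% were called higher and 39.2% were called in either direction. Since the rule used this contrast, nothing about the loci is read from that count. On library totals, the scale of the rule, the median log2 fold change of mEmBP-OE-4 over WT over all tested rows was -0.47, against 0.00 with trimmed-mean (TMM) scaling, and 16.4% of all calls were higher there in place of 51.2%. On TMM-scaled library sizes the rule gave 57 loci, which held all of the 48.

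Within mEmBP-OE-4 the loci were uneven. The highest library exceeded the lowest by 1.22-fold to 9.37-fold with a median of 2.29-fold, and 28 loci differed by over 2-fold and 12 by over 4-fold. The 16747 other Os loci that were on in every mEmBP-OE-4 library had a median of 1.59-fold. Counting error is larger at low counts. The 10405 of these loci with mean levels between the lowest and the highest of the 48 had a median of 1.75-fold. Of them 35.7% were over 2-fold and 5.45% over 4-fold. Within that range, 0.675 to 15.01 CPM, they were not matched in level to the 48, whose median was 1.70 CPM. On TMM-scaled sizes the medians were 1.99-fold for the 48 loci and 1.59-fold for the 10405, with 24 of the 48 over 2-fold and 7 over 4-fold. The rule bounds the low side of this spread, so it is given as a description.

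The steadiest locus was Os11g0677000, at 2.98, 3.48, 3.64 and 3.56 CPM in mEmBP-OE-4 replicates 1 to 4, against 0, 0.0248, 0.0842 and 0.0508 CPM in WT replicates 1 to 4. Among the most uneven was Os11g0440200, at 3.92, 2.22, 7.36 and 0.807 CPM in mEmBP-OE-4 replicates 1 to 4, against 0.0210, 0, 0 and 0.0254 CPM in WT replicates 1 to 4. It was highest in replicate 3 and lowest in replicate 4 of mEmBP-OE-4, 9.12-fold apart. Os09g0538000 had 13.8, 3.38, 7.43 and 3.13 CPM in mEmBP-OE-4 replicates 1 to 4, against 0, 0, 0 and 0.0508 CPM in WT replicates 1 to 4.

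The loci did not all peak in the same library. Replicate 1 of mEmBP-OE-4 was the highest of the group for 22 loci, replicate 3 for 13, replicate 4 for 11 and replicate 2 for 2, and replicate 2 was the lowest for 24. On library totals the table as a whole had the same order, where replicate 1 was the highest for 56.7% of the 16795 loci that were on, replicate 3 for 23.0%, replicate 4 for 14.8% and replicate 2 for 5.47%. On TMM-scaled sizes replicate 1 was the highest for 18 of the 48 loci, replicate 4 for 15, replicate 3 for 11 and replicate 2 for 4, or 37.5%, 31.3%, 22.9% and 8.33% of them. On that scale the shares of the loci that were on were 27.5% for replicate 1, 27.6% for replicate 4, 23.5% for replicate 3 and 21.4% for replicate 2, so the order seen on library totals did not hold for the whole table there.

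A group of 3 loci on chromosome 5 stood out by replicate 4 of mEmBP-OE-4. Os05g0190300 had 50, 57, 45 and 426 counts in mEmBP-OE-4 replicates 1 to 4 and no count in any WT library, which is 1.31, 1.41, 0.986 and 8.39 CPM in mEmBP-OE-4. Os05g0135500 had 76, 33, 57 and 388 counts in mEmBP-OE-4 replicates 1 to 4, also with none in WT, or 1.98, 0.815, 1.25 and 7.64 CPM in mEmBP-OE-4. Os05g0163300 had 84, 48, 58 and 294 counts in mEmBP-OE-4 replicates 1 to 4, or 2.19, 1.19, 1.27 and 5.79 CPM, against a single count in WT replicate 3. Replicate 4 exceeded the next mEmBP-OE-4 library by 5.96-fold, 3.85-fold and 2.64-fold at these 3 loci.

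Such a rise of replicate 4 was rare among the loci that were on in every mEmBP-OE-4 library. It exceeded the next mEmBP-OE-4 library by over 2-fold at 21 of the 16795 loci that were on (0.125%), and 3 of the 21 belonged to the 48. On TMM-scaled sizes there were 33 such loci, again with these 3 among them. Between Os05g0135500 and Os05g0190300 in the locus order 187 loci were on in mEmBP-OE-4, and these 3 were the only ones with replicate 4 over 2-fold above the next library. The ends of this stretch are 2 of the 3 loci and were set after their values were seen. Past its end on chromosome 5, replicate 4 also exceeded the next mEmBP-OE-4 library by over 2-fold at Os05g0197200 (2.91 against 1.34 CPM) and Os05g0217700 (57.1 against 24.2 CPM). Neither belongs to the 48, since both were on in WT, at 1.39 to 2.57 CPM and 51.4 to 112.9 CPM. The median of replicate 4 over the highest other library was 0.750 in this stretch, against 0.735 for all loci that were on. The fourth of the 48 in the stretch, Os05g0140100, had 2.35, 0.692, 0.964 and 1.06 CPM in mEmBP-OE-4 replicates 1 to 4 and so was highest in replicate 1. Os05g0142400, also in the stretch but none of the 48, had 0.809, 0.321, 0.701 and 2.91 CPM in mEmBP-OE-4 replicates 1 to 4, against 0.357, 0.124, 0.140 and 0.178 CPM in WT replicates 1 to 4.

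**Figure D3:**
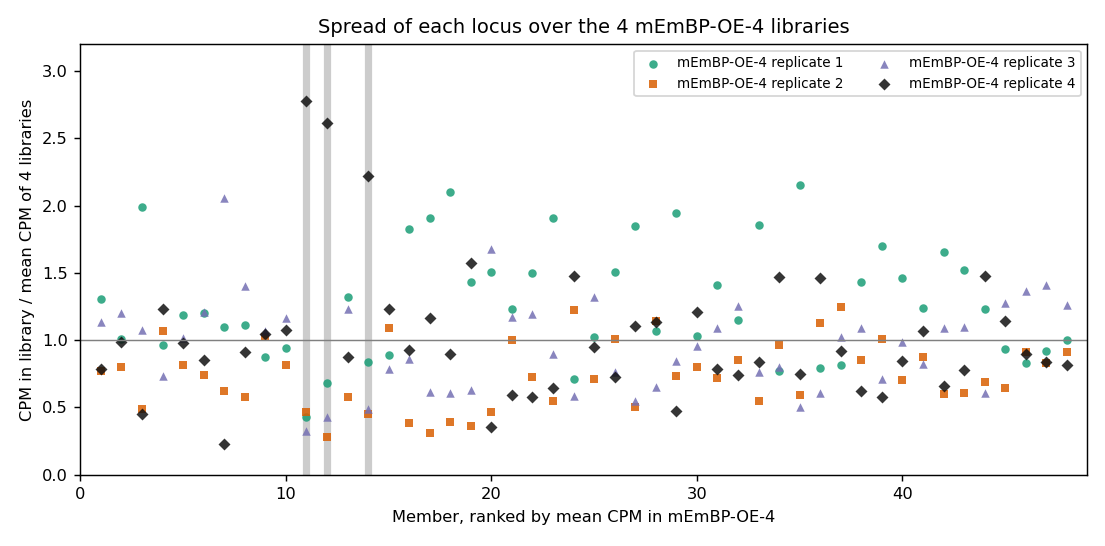
Level of each of the 48 loci in each mEmBP-OE-4 library divided by the mean of the 4 libraries, with loci ranked by that mean and 1 symbol per library. The 3 grey bars mark Os05g0190300, Os05g0135500 and Os05g0163300, where replicate 4 (black diamonds) exceeds the next library by 5.96-fold, 3.85-fold and 2.64-fold.

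Replicate 1 of mEmBP-OE-4 exceeded the next library by over 2-fold at 5 loci of the 48 (10.4%), against 3.26% of the loci that were on, and at 1 of the 48 on TMM-scaled sizes. These shares were not tested against each other. The widest of these was Os02g0236600, at 2.43, 0.667, 0.570 and 0.846 CPM in mEmBP-OE-4 replicates 1 to 4, with a single count in WT replicate 4. No locus of the 48 had replicate 2 or 3 over 2-fold above the others on library totals, and 1 had replicate 3 so on TMM-scaled sizes.

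By their IDs the 48 loci lay on all 12 chromosomes. Chromosome 1 held 8, chromosomes 3 and 5 held 6 each, chromosome 4 held 5, chromosomes 6, 7, 10 and 11 held 4 each, chromosome 9 held 3, chromosome 12 held 2, and chromosomes 2 and 8 held 1 each. Per 1000 Os loci outside the segments this is between 0.251 on chromosome 2 and 2.10 on chromosome 5. Chromosome 2 held 2.08% of the 48 and 11.3% of those Os loci. With counts this small, the shares per chromosome are a description.

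**Figure D4:**
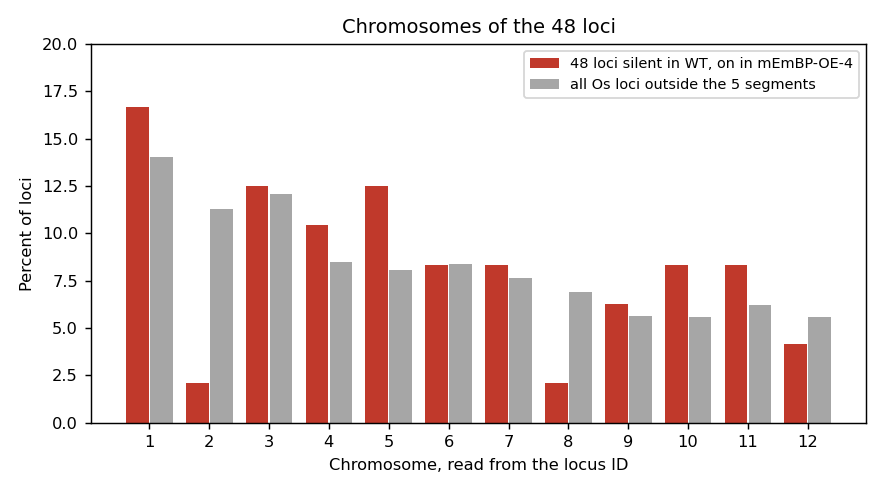
Share of the 48 loci (red) and of all Os loci outside the 5 segments (grey) on each chromosome, in percent, with the chromosome read from the locus ID. Chromosome 5 holds 12.5% of the 48 against 8.09% of all Os loci, and chromosome 2 holds 2.08% against 11.3%.

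The loci were scattered along the chromosomes. No locus of the 48 had another as its direct neighbour in the locus order, and 2 had another within 5 loci. These were Os10g0135650 and Os10g0135833, 2 loci apart on chromosome 10. Os04g0156200 and Os04g0161100 on chromosome 4 were 6 loci apart. The nearest to one of the 5 segments was Os11g0636050, 20 loci away on chromosome 11, and the next nearest was 117 loci away. Os11g0636050 had 6.60, 4.55, 5.65 and 5.43 CPM in mEmBP-OE-4 replicates 1 to 4, against 0, 0.0248, 0 and 0.0254 CPM in WT replicates 1 to 4.

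The loci on either side of the 48 were not used by the rule. There were 95 of them, of which 57 passed the filter, and 17 of these were called higher and 9 lower in mEmBP-OE-4 by the quasi-likelihood test of edgeR, adjusted after Benjamini and Hochberg. That is 45.6% called, against 39.2% of all tested rows, and 29.8% called higher, against 20.1%. Within 5 loci on either side 254 loci were tested, of which 59 were called higher and 50 lower, or 42.9% in all. That is 23.2% higher and 19.7% lower, nearer to the 20.1% and 19.1% of all tested rows. Over 57 and 254 loci these shares are a description, and none of them was tested against the table. With library totals alone 15.8% of the 57 direct neighbours were called higher and 38.6% lower, beside 8.47% and 43.1% of all tested rows, since that scaling lowers every row in mEmBP-OE-4.

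Loci of the annotation were first numbered so that their IDs end in 00, and numbers in between were used for loci added later. Of the 48 loci 9 had such a number (18.8%), close to the 17.9% of all Os loci, while 5.72% of the loci that were on in mEmBP-OE-4 had one. Of these 9, the most abundant was Os11g0636050. Of the loci with the opposite pattern, on in WT and silent in mEmBP-OE-4, 16.7% had one. These shares were not tested against each other. The loci that were on in mEmBP-OE-4 were not matched to the 48 in level, with a median of 9.24 CPM against 1.70 CPM.

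The opposite pattern, under the same thresholds, was also found at 48 loci outside the segments. The numbers were equal only on library totals, since on TMM-scaled sizes 57 loci were on in mEmBP-OE-4 alone and 33 in WT alone. With a floor of 2 CPM, 9 loci were on in mEmBP-OE-4 alone and 20 in WT alone on library totals, but 12 of each kind on TMM-scaled sizes. Inside the segments, which were picked for crowded large changes, 3 loci were on in mEmBP-OE-4 alone and 24 in WT alone. The loci on in WT alone had a summed level of 0.961 ± 0.412 CPM in mEmBP-OE-4 and 144.9 ± 9.36 CPM in WT (SD, n = 4 each). Between the highest and the lowest library of the group that was on, the 48 loci on in mEmBP-OE-4 had a median of 2.29-fold with 12 loci over 4-fold, against 1.55-fold with 3 loci over 4-fold for the loci on in WT. These values are on library totals, and on TMM-scaled sizes the 48 loci had 1.99-fold with 7 loci over 4-fold. The spread of the loci on in WT was not computed on that scale. No spread of all loci on in WT is given beside it, and the difference was not tested. Only Os11g0677000 of the 48 had a locus of the opposite pattern within 5 loci, 3 loci away.

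**Figure D5:**
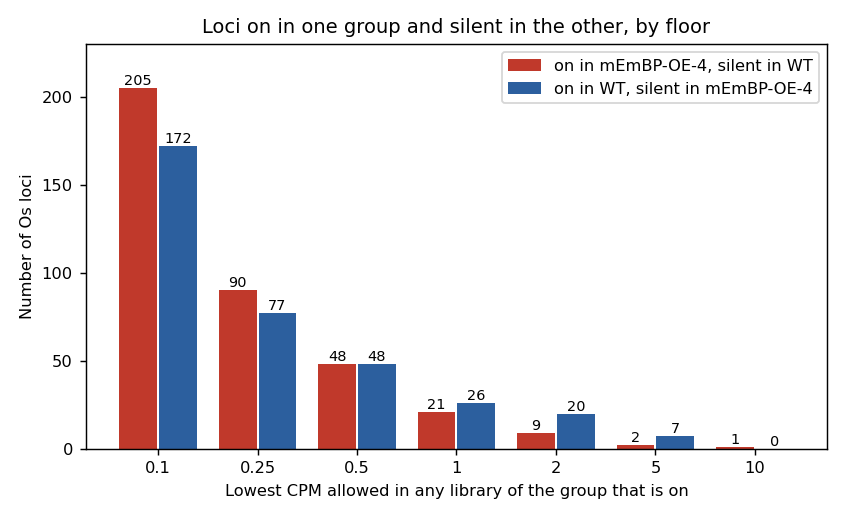
Number of Os loci outside the segments that were silent in one group (under 0.1 CPM in each library) and on in the other, by the lowest CPM allowed in any library of the group that was on, with mEmBP-OE-4 in red and WT in blue. Both counts are 48 at a floor of 0.5 CPM, and the balance depends on the scaling, with 57 and 33 loci on TMM-scaled library sizes.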

How the data were processed

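The authors deposited whole-number read counts, unnormalised, with 1 column per library. Per the submitters' processing notes, FastQC, Trim Galore, STAR 2.5.3a, DESeq2 and build IRGSP-1.0 were used, in roles not stated. For the counter, the strand setting and the annotation release, nothing is stated in the sources used here. Near-identical, overlapping and antisense loci therefore carry an unknown assignment error. Libraries were grouped by title, and CPM was computed on column totals of 36850 rows, 35667 of them with Os IDs. The gene table for ASM3414082v1 matched 1 row ID and none of the 48. The planned product lists and promoter search were therefore not run.

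All rows were fitted with edgeR 4.0.16 in R 4.3.3 (filterByExpr with minimum count 10 and minimum total 15, TMM, quasi-likelihood F test, Benjamini-Hochberg threshold 0.05), checked on simulated counts. In the simulation few rows changed, up or down at equal odds, and the libraries were independent. It therefore does not cover the large share of calls here or the correlation between libraries given below. P-values measure only the spread between libraries, in part perhaps technical. No 2 libraries of a group agreed within sampling noise (chi-square over its degrees of freedom at least 6.20). Deviations of same-numbered libraries correlated at 0.641, 0.347, 0.189 and 0.104 across genes, each over the 0.1 set for pairing. The reported calls nevertheless come from a fit without pairs. With the replicate block, run as an alternative, 10200 rows were called in place of 8109. Some different numbers also correlated, up to 0.472 for mEmBP-OE-4 replicate 4 with WT replicate 2, so the pairing is uncertain. The loci and the rule were chosen with earlier results of these data known. The rule for named loci took the 2 most abundant, and the others were named after their values were seen. Alternatives were DESeq2 1.42.0, other scalings and thresholds, no filter, the replicate block and leaving out each library. Intervals and floors cover counting error only, and the bounds for loci with no WT count cover that of WT alone. They make no allowance for the choice of the loci by the same counts.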

Additional observations from a re-analysis of the deposited data

Results flagged for a closer look

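Dixon's criterion was applied to the 4 mEmBP-OE-4 values of each of the 48 loci, and to the summed levels and totals of both groups. It picked out 5 of 52 groups of values. Its rate of about 1 in 20 holds for normal values that were not selected. The rule cut the values of single loci at 0.5 CPM, so the 5 cannot be read against that rate and serve as a list only. At Os05g0190300 mEmBP-OE-4 replicate 4 had 8.39 CPM, far above the 0.986 to 1.41 CPM of the other libraries of the line. At Os02g0236600 replicate 1 had 2.43 CPM, above 0.570 to 0.846 CPM in the others. Replicate 3 stood below the others at Os08g0140700, with 0.964 CPM against 1.57 to 1.68 CPM, and above them at Os10g0118000, with 1.07 CPM against 0.653 to 0.716 CPM. Replicate 3 was also high at Os11g0606200, with 0.964 CPM against 0.568 to 0.626 CPM. The WT values of single loci were not tested in this way, since the rule held them to a few counts.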

How the results depend on the processing

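The number of loci depended mainly on the thresholds. It was 28 with a WT ceiling of 0.05 CPM, 81 with 0.2 CPM, 7 with no WT count at all, 90 with a mEmBP-OE-4 floor of 0.25 CPM and 21 with 1 CPM. It was 57 on TMM-scaled sizes, 58 on DESeq2 size factors, 51 with the segments kept in and 50 to 60 without each library in turn. With the segments kept in or a library left out the rule has fewer conditions, so the number could not fall below 48. The share of counts held by the 48 loci in mEmBP-OE-4 was 0.0121%. It was 0.00804% with a floor of 1 CPM and 0.00120% for loci with no WT count, which follows from fewer loci. With each mEmBP-OE-4 library left out, the loci were chosen anew, which gave 51 to 60 loci. These held 0.0118% to 0.0145% of the counts of the mEmBP-OE-4 libraries kept. Their median level was 1.43 to 1.64 CPM, beside 1.70 CPM for the 48. Both the loci and the libraries differ in these comparisons. The 0 loci with another of the 48 as direct neighbour became 2 within 5 loci. With the replicate block 10200 rows were called in place of 8109 and 33 neighbours in place of 26. The block moved no count by over 1.5 times. Without each library 6399 to 8450 rows and 20 to 30 neighbours were called. DESeq2 called 9086 rows and 31 neighbours. Of 60 values under alternatives 52 stayed within 1.5 times the reported count or, for levels and shares, within 1 SD between libraries, and 8 moved further. Depth limits the WT side, where the ceiling is 3.56 to 4.76 counts.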
